A study of Caenorhabditis elegans with 2 samples.

Results

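The gene din-1 of Caenorhabditis elegans encodes DIN-1, a nuclear receptor co-repressor, and lies on the minus strand of chromosome II from 11614770 to 11633609 (WBGene00008549, build ce11, also called WBcel235). Its regions were selected on position: every region of 4 deposited peak lists whose summit, the base that the peak caller marked as its highest point, lay inside din-1 or within 5 kb of it. This gave 3 of the 519 peaks of the authors' optimal list, 15 of the 24215 regions of the pooled list, 15 of the 27360 regions of replicate 1 and 16 of the 24519 regions of replicate 3. The gene itself was chosen by a measured value, its 3 optimal peaks, so that this number and the signals of these peaks are given as a description and nothing is tested on them.

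The lists come from chromatin immunoprecipitation sequencing (ChIP-seq) of EYG-1 in hermaphrodite late embryos of strain OP443, collected 4 hours after eggs were synchronized by bleaching. OP443 carries a transgene in which the gene Y53C12C.1 (eyg-1) is fused at its C-terminal end to GFP and a FLAG tag, and chromatin of whole organisms was, per the labels, immunoprecipitated through its GFP. All samples form 1 group of 2 libraries, biological replicates 1 and 3. No other strain, stage or untagged worm and no control library was analysed here, so that no comparison between groups could be made, and the values are those of a mixture of all embryonic cells.

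EYG-1 is a homeodomain transcription factor related to Drosophila Eyegone. DIN-1 was named as a protein that interacts with DAF-12, a steroid hormone receptor of the worm, and is related to mammalian SHARP (SPEN), a scaffold that links nuclear receptors to histone deacetylases. When DAF-12 is without its ligand, the short form of DIN-1 acts with it to favour dauer arrest, a larval diapause, and long forms are made from the same gene. Small nucleolar RNAs (snoRNAs) guide chemical modification of ribosomal and other RNAs, and in worms many of their genes lie in introns of protein-coding genes.

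The 3 optimal peaks lay at genes annotated as snoRNA or ncRNA, together called small RNA genes here. Over all optimal summits, 9.44% had a snoRNA gene within 100 bp and 29.7% an ncRNA gene, and the share with either was not counted. The following windows of the reference genome (RefSeq sequence of WBcel235) show how each din-1 summit stands to these genes. Capitals mark the bases of the annotated small RNA gene. The first window reads along the plus strand over chrII:11635051-11635347, with the optimal summit at 11635151 and the snoRNA gene ZK20.9 in capitals. It lies upstream of all din-1 transcripts.
ZK20.9 window: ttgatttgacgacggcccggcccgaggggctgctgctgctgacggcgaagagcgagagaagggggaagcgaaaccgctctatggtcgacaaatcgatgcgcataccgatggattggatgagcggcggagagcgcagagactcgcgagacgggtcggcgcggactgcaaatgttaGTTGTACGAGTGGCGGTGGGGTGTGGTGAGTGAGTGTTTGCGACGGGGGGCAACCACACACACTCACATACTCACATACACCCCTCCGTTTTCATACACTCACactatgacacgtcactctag
The next window reads along the minus strand, the strand of both ZK20.8 and din-1, over chrII:11634177-11634397. It holds ZK20.8, annotated as ncRNA, a class with no stated function, and the optimal summit at 11634287 lies inside it.
ZK20.8 window: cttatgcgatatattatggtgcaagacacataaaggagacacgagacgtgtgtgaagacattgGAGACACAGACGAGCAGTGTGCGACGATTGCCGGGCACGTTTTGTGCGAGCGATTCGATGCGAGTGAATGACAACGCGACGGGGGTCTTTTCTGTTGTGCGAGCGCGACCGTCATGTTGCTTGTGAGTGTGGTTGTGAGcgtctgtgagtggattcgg
The last window reads along the plus strand over chrII:11620079-11620368, from the base next to the 5' end of transcript din-1 d into the sequence upstream of it. Capitals mark the part of the snoRNA gene F07A11.15 in this window, and the optimal summit is at 11620218.
F07A11.15 window: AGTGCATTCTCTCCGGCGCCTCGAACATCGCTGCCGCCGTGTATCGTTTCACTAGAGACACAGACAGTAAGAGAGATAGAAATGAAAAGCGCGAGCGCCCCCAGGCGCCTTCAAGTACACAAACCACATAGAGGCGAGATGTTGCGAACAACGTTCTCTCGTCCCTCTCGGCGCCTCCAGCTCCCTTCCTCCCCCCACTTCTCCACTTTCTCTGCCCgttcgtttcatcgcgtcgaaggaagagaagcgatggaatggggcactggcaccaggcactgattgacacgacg

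Of the 3 peaks, 1 lies inside din-1 and 2 upstream of it. The annotation gave din-1 7 transcripts with 6 distinct 5' ends. Transcripts a, b and c began at 11633609 and 11633586, e at 11632273 and f at 11630637, all with coding lengths of 6042 to 7221 bp. Transcript d began 13531 bp further downstream than a, at 11620078, spanned 5309 bp in 5 exons and had a coding length of 1701 bp. Transcript g, with a coding length of 558 bp, began at 11617119. Upstream of the gene the next annotated protein-coding gene, ghi-1, lay 13.137 kb away. The pseudogene WBGene00002194 lay 6.751 kb away, so that in the 5 kb upstream of din-1 ZK20.8 and ZK20.9 were the only annotated genes nearest to a pooled summit. ZK20.8 (139 bp, 11634196 to 11634334) is on the strand of din-1 and ZK20.9 (103 bp, 11635225 to 11635327) on the other. The snoRNA gene F07A11.15 (271 bp, 11620025 to 11620295) and the ncRNA gene F07A11.10 (287 bp, 11619929 to 11620215) overlap each other on the plus strand, antisense to din-1, and both overlap the 5' end of transcript d.

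**Figure D1:**
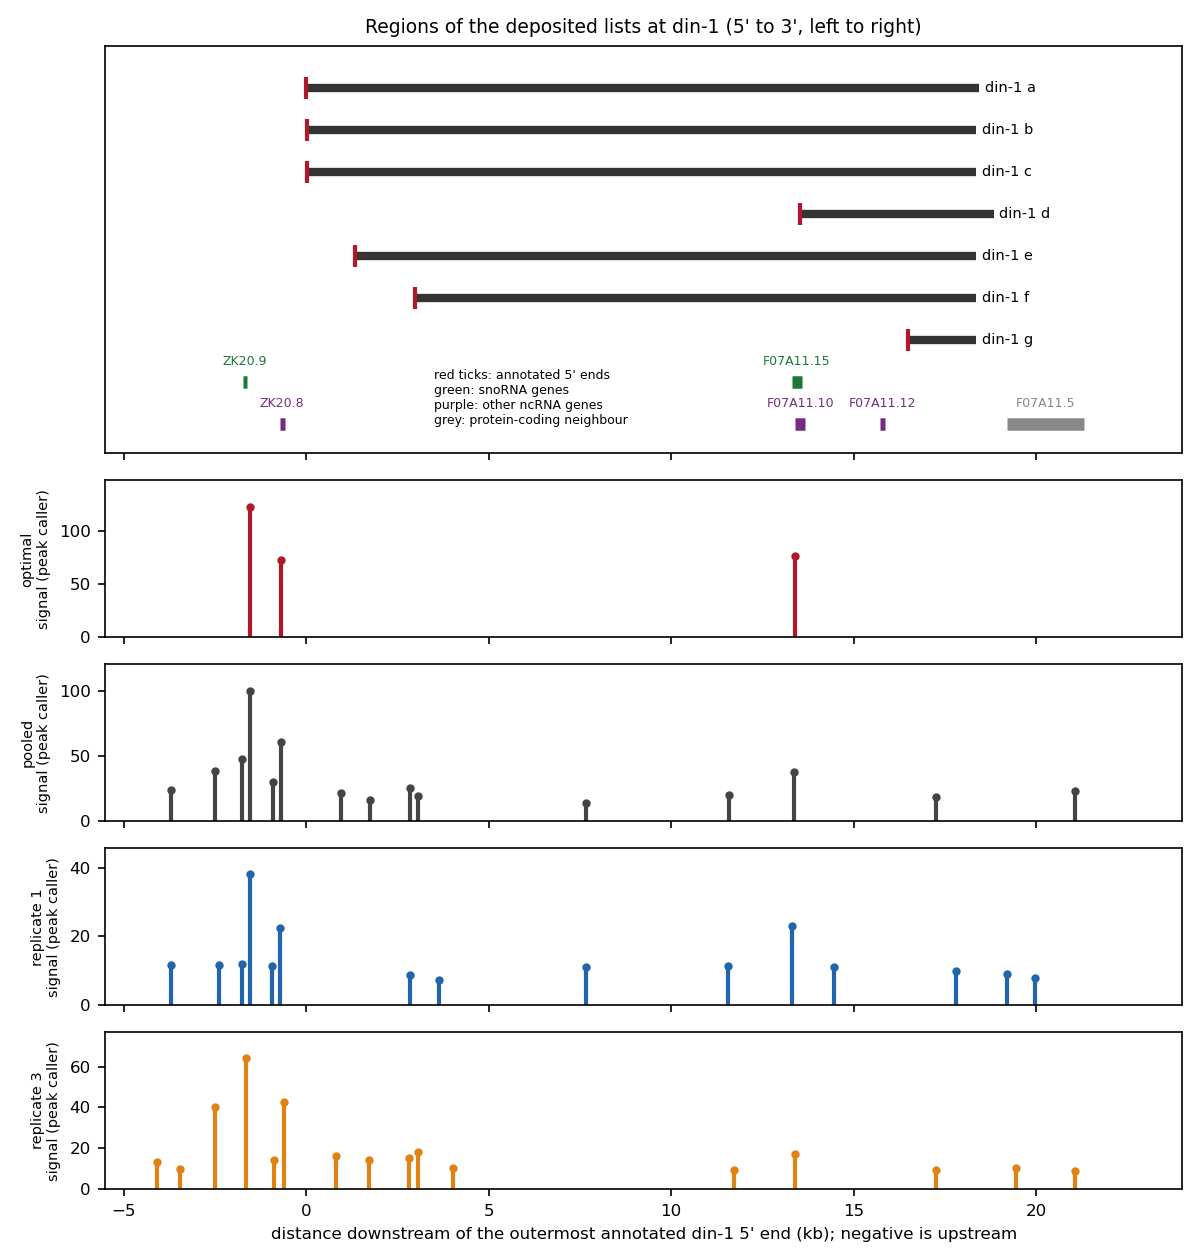
Annotated din-1 transcripts and neighbouring genes (top) and the signal of each region in the optimal, pooled, replicate 1 and replicate 3 lists (stems), against the distance in kb from the outermost din-1 5' end. Each stem is a region at its summit, and the 4 signal axes have different scales. In each list the highest stem is the one at ZK20.9, upstream of the gene.

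The strongest optimal peak at din-1 covered 11634923 to 11635378, upstream of the gene. Its summit lay 74 bp upstream of the 5' end of ZK20.9 and 1542 bp upstream of the outermost din-1 5' end. The signal, the peak caller's own value and without a count of reads behind it, was 123.3, rank 118 of the 519 optimal peaks. In the pooled list the signal was 100.7, rank 169. The libraries placed it differently: in replicate 1 the summit was at 11635152 with a signal of 38.01 and rank 306 (top 1.12% of that list), and in replicate 3 it was at 11635268 with a signal of 64.1 and rank 148 (top 0.604%). These summits were 116 bp apart, one 73 bp upstream of ZK20.9 and the other 43 bp inside it. Taking the nearest summit of each replicate list, it was the one optimal peak at din-1 that ranked among the 519 highest signals of both. The replicate 3 summit lay 117 bp from the optimal summit, beyond the 100 bp used to call summits matched.

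The peak over ZK20.8 covered 11634059 to 11634514, with its summit 47 bp inside the 5' end of ZK20.8 and 678 bp upstream of the outermost din-1 5' end. Its signal was 73.2, rank 486 of the 519 optimal peaks and close to the lowest signal in that list, 71.5. The pooled signal was 61.3 at rank 556. Replicate 1 had a signal of 22.5 at rank 1129 (top 4.13%), and replicate 3 had 42.7 at rank 380 (top 1.55%). Here too the higher rank was in replicate 3, and the summits lay 105 bp apart, at 11634332 and 11634227.

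The third peak, from 11619990 to 11620445, lay inside din-1, in an intron of the long transcripts and 140 bp upstream of the 5' end of transcript d. Its summit was 193 bp inside F07A11.15 and 3 bp beyond the end of F07A11.10. The optimal signal was 76.5 (rank 428), against a pooled signal of 37.9 (rank 1582). In replicate 1 the signal was 23.1 at rank 1060 (top 3.87%), and in replicate 3 it was 17.2 at rank 4221 (top 17.2%). Replicate 1 thus ranked this peak higher than replicate 3 did, the reverse of both upstream peaks. The −log10 q-value was 1.65 in the pooled list, 2.15 in replicate 1 and 0.477 in replicate 3. Both upstream peaks had the highest −log10 q-value of the pooled list, 3.18, which 766 regions shared.

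**Figure D2:**
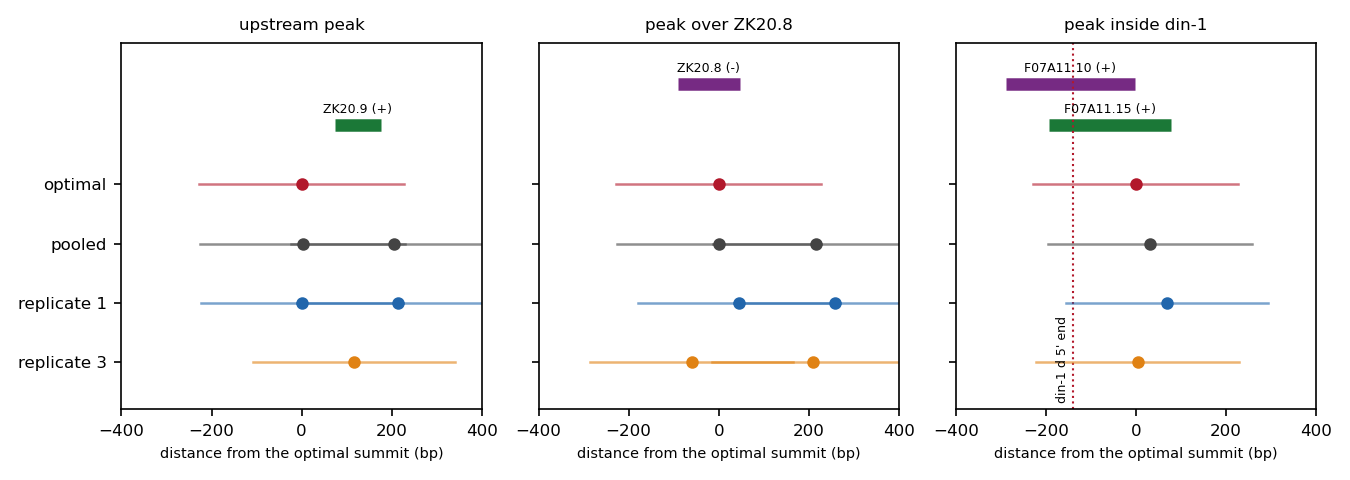
Summits (points) and extents (lines) of the regions at each optimal peak of din-1 in the 4 lists, with the small RNA genes as bars, against the distance in bp from the optimal summit along the plus strand. The replicate summits lie 116, 105 and 66 bp apart from left to right.

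Signals in the optimal list exceeded those in the pooled list for all 3 peaks, by a factor of 1.22 at ZK20.9, 1.19 at ZK20.8 and 2.02 at F07A11.15. Over the 508 optimal peaks with a pooled summit within 100 bp the median factor was 1.08, with quartiles of 1.01 and 1.21. The factor of the peak inside din-1 was exceeded by 2 of the 508 peaks (0.394%), and 3 had a pooled rank further down the list than its 1582. A pooled rank beyond 519 was itself common, in 82 of the 508 peaks (16.1%). On which reads the optimal signals rest is not stated in the sources used here, so that the factors compare 2 deposited columns and no more.

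**Figure D3:**
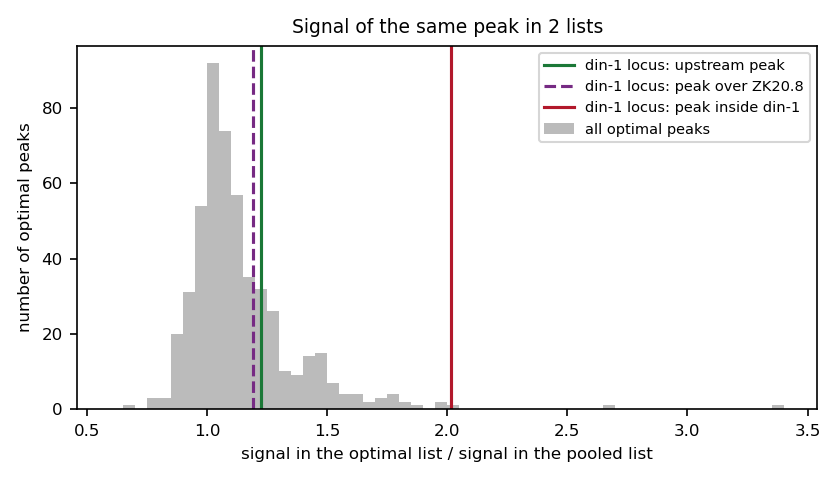
Number of optimal peaks by the ratio of their signal in the optimal list to that in the pooled list, for the 508 peaks matched within 100 bp. Vertical lines mark the din-1 peaks, of which the one inside the gene, at 2.02, lies in the upper tail of the grey histogram and the others lie near its upper quartile of 1.21.

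The longer lists held regions along the whole length of din-1. Of the 15 pooled regions, 8 had their summit inside the gene, 6 upstream and 1 downstream of it. Inside the gene 5 summits lay in introns and 3 in coding exons. The density was 5.20 summits per 10 kb over the 28.84 kb examined, against 2.52 per 10 kb on chromosome II as a whole. It was 5.20 against 2.80 in replicate 1 and 5.55 against 2.58 in replicate 3. The pooled list and both replicate lists hold regions at the 3 optimal peaks for which the gene was chosen. Their densities here and their signals given below are thus in part set by that choice. Because 3 pairs of pooled regions overlapped, the 15 regions made up 12 separate spans.

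In the pooled list the strongest regions lay upstream. Pooled signals in the locus ran between 14.3 and 100.7 with a median of 24.2, against a median of 18.2 over the whole pooled list, and 13 of the 15 were above that median. The 4 highest pooled signals, 100.7, 61.3, 48.0 and 38.4, all belonged to upstream regions, and the peak inside the gene followed with 37.9. The order differed in the optimal list and in replicate 1, where the peak inside the gene was above the ZK20.8 peak (76.5 and 73.2 in the optimal list, 23.1 and 22.5 in replicate 1). In replicate 1 the median was 11.3 in the locus and 9.93 over the list, and 11 of 15 regions were above the list median. In replicate 3 the medians were 14.1 and 12.2, and 10 of 16 were above. The replicate and pooled lists hold background regions as well as peaks, so that many entries are weak, and a stretch with no entry may still have carried the protein.

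An optimal summit within 100 bp was found for 3 of the 15 pooled regions, against 2.1% of all pooled regions; that share is what the gene was chosen for. Among the 519 highest signals of the pooled list was 1 of the 15, against 2.14% of that list. The same cut held 1 of the 15 regions of replicate 1, against 1.9% of its list, and 3 of the 16 regions of replicate 3, against 2.12%. In replicate 3 these were the regions at ZK20.9 and ZK20.8 and a further upstream one at 11636097, while the peak inside din-1 was not among them. In the pooled list and replicate 1 it was the region at ZK20.9. The regions at ZK20.9 and ZK20.8 lie at optimal peaks for which the gene was chosen. These shares, too, are thus in part set by that choice.

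Other pooled regions upstream of din-1 had no optimal counterpart. The strongest pooled region with no optimal summit within 100 bp had its summit at 11635356, 29 bp beyond the 3' end of ZK20.9, and a pooled signal of 48.0 at rank 939. In replicate 1 it had its own summit at 11635365 with a signal of 12.04 at rank 7979. In replicate 3 the nearest summit, 88 bp away, was the one at 11635268 already given for the ZK20.9 peak. The region overlaps that peak, and a single broad site and a pair of sites cannot be told apart in these lists. Another region, with its summit at 11636098 and 2489 bp upstream of the outermost 5' end, had a pooled signal of 38.4 at rank 1538, above the 37.9 of the peak inside the gene. Its signal was 11.7 at rank 8629 in replicate 1 and 40.03 at rank 437 in replicate 3. That is a 19.7-fold difference in rank between the libraries, against a median of 2.21-fold over the 6832 pooled regions with a summit within 200 bp in both replicate lists, of which 8.45% differed over 10-fold.

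How well the libraries matched at din-1 depended on the region. In both replicate lists, 6 of the 15 pooled regions (40%) had a summit within 100 bp, against 4412 of 24215 (18.2%) over the whole pooled list. Of the rest at din-1, 8 had one in a single replicate and 1 had none. The 6 include the regions at 11620250 and 11634288, counterparts of optimal peaks for which the gene was chosen, so that the share is in part set by that choice. They also include the region at 11635356, matched to the replicate 3 summit at 11635268 that is also given for the ZK20.9 peak. Of the optimal peaks, 2 of 3 were matched in both replicates within 100 bp, against 448 of 519 (86.3%), and the peak at ZK20.9 was the one that was not. Replicate summits were a median of 105 bp apart at the 3 din-1 peaks, against 39 bp (quartiles 17 and 69) over the 505 optimal peaks with a summit within 200 bp in both. A distance over 100 bp was found in 12.5% of those 505.

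**Figure D4:**
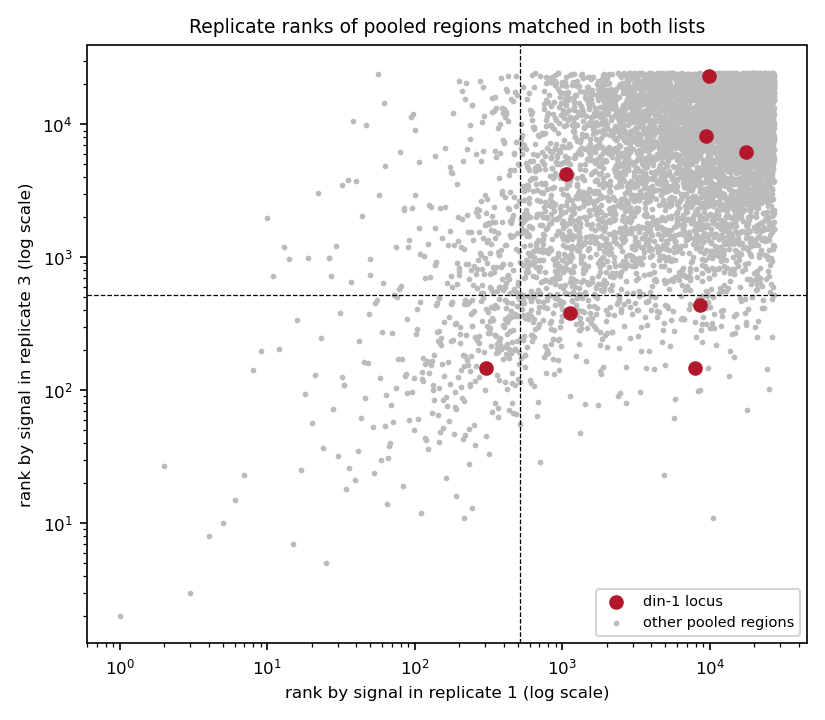
Rank by signal in replicate 3 against rank by signal in replicate 1 for the 6832 pooled regions with a summit within 200 bp in both lists, on log axes, with the 8 din-1 regions as large points. Dashed lines mark rank 519, and 2 of the din-1 points share the replicate 3 summit at 11635268, at rank 148. The ZK20.9 peak is the din-1 point inside both lines.

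Each group of din-1 5' ends was then examined for summits from 1000 bp upstream to 200 bp downstream of it. Upstream of transcripts a, b and c stood the ZK20.8 peak and, 894 bp upstream of a, a pooled region with a signal of 30.1. That region had 11.4 at rank 9368 in replicate 1 and 14.0 at rank 8169 in replicate 3. The ZK20.9 peak lay outside this window. At transcript d stood the intragenic optimal peak. At transcript f, pooled regions lay 133 bp upstream and 94 bp downstream of the 5' end, with signals of 25.4 and 19.6. The first had 8.89 at rank 17666 in replicate 1 and 15.4 at rank 6153 in replicate 3. For the second, replicate 3 had 18.1 at rank 3663, and the nearest replicate 1 summit was 232 bp away. At transcript e the nearest pooled summit was 381 bp upstream, with a signal of 22.1. That region was matched in neither replicate: the nearest summit was 1678 bp away in replicate 1 and 141 bp away in replicate 3. No summit of any of the 4 lists fell in the window of transcript g, where the nearest pooled summit was 777 bp downstream.

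In all, 2 of 3 optimal, 6 of 15 pooled, 4 of 15 replicate 1 and 6 of 16 replicate 3 summits at din-1 fell in such a window. Over the whole lists, windows around the 5' ends of all protein-coding genes held 54.9% of optimal, 33.8% of pooled, 31.9% of replicate 1 and 33.6% of replicate 3 summits. The pooled regions at din-1 not yet described lay outside the windows of the din-1 5' ends, with signals of at most 24.2. Inside the gene they were at 11631858 (signal 16.6) and 11625927 (14.3), both in coding exons, and at 11622014 (20.2) and 11616342 (19.0), both in introns. Outside it they were at 11637320 (24.2), 3711 bp upstream, and at 11612553 (23.4), 253 bp inside the 5' end of the protein-coding gene F07A11.5 downstream of din-1. The ncRNA gene F07A11.12, between the 5' ends of transcripts d and g, had no pooled summit within 100 bp.

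A snoRNA gene lay within 100 bp of 2 of the 3 optimal summits at din-1, against 9.44% of all optimal summits, and of 3 of the 15 pooled summits, against 0.508% of all pooled summits. Of these pooled summits, 11620250 and 11635154 are counterparts of optimal peaks for which the gene was chosen. The other, 11635356, belongs to a region that overlaps the ZK20.9 peak. The pooled share is thus in part set by that choice. An ncRNA gene lay within 100 bp of 2 of the 3 optimal summits, ZK20.8 at one and F07A11.10 at the other, against 29.7% of all optimal summits. The peaks differed in where they stood relative to the snoRNA gene. At ZK20.9 the summit was 74 bp upstream of the 5' end, among 49 snoRNA genes with an optimal summit within 100 bp whose median position was 47 bp upstream (−47 bp, quartiles −59 and −31), and 2 of these genes had a summit further upstream. At F07A11.15 the summit was 193 bp downstream of the 5' end, further downstream than at 48 other genes. The gene is long for a snoRNA gene, at 271 bp against a median of 130 bp over 346 snoRNA genes, and 8 of the 346 were at least as long.

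Signals at the din-1 snoRNA genes were in the lower part of this group. The ZK20.9 peak, at 123.3, ranked 32 of 49 and the F07A11.15 peak, at 76.5, ranked 47 of 49, against a median signal of 144.01. Of the 346 snoRNA genes, 216 lay inside a protein-coding gene, and 27 of these had an optimal summit within 100 bp. In 7 of the 27, F07A11.15 among them, the snoRNA gene ran antisense to its host. The letters of the C box core TGATGA and of the D box CTGA, which mark the C/D class of snoRNAs, were searched on the sense strand only. They were in neither ZK20.9 nor F07A11.15, and were in 14.7% and 53.8% of all annotated snoRNA genes.

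The 3 peaks lay in GC-rich sequence, as the printed windows show. In 301 bp around the summit the GC content was 59.8% at ZK20.9, 55.5% at ZK20.8 and 56.1% at F07A11.15. The median was 45.8% over all optimal summits (quartiles 39.9 and 50.5) and 36.2% over all pooled summits (quartiles 31.9 and 41.2). These values were higher than 98.8%, 93.3% and 94.0% of all optimal windows. The 15 pooled windows at din-1 had a median of 43.5% and included one of 28.2%, at 11622014. Whether GC content had a part in the signal was not tested.

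**Figure D5:**
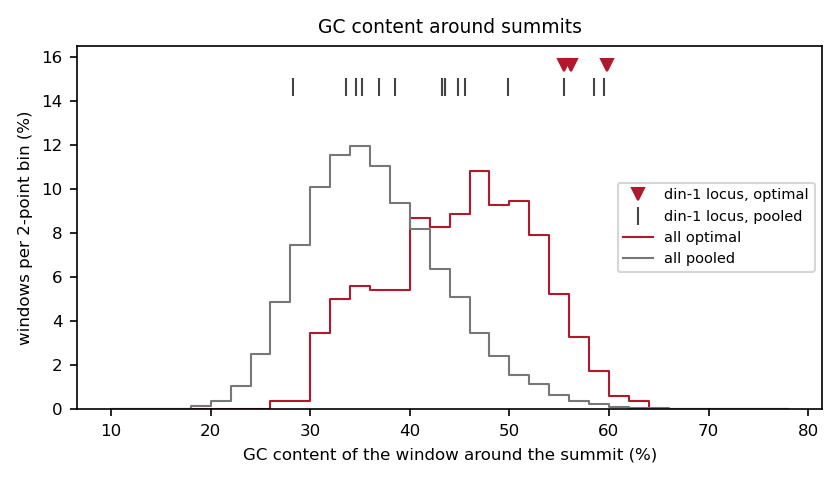
Share of windows per 2-point bin of GC content, in 301 bp around the summit, for all optimal peaks and all pooled regions (lines), with the din-1 optimal peaks as triangles and the din-1 pooled regions as ticks. The 3 triangles, at 55.5 to 59.8%, lie in the upper part of the optimal distribution, whose median is 45.8%.

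Short motifs were counted on both strands in the same 301 bp. The homeodomain core TAATTA was in none of the 3 optimal windows at din-1, against 7.51% of all optimal and 14.2% of all pooled windows. Its shorter form TAAT, which every TAATTA contains, was in 1 of the 3, at ZK20.8, against 80.2% of optimal and 92.1% of pooled windows. GAGAGA was in all 3, with 3 matches at F07A11.15 and 1 each at the others, against 48.4% of optimal and 21.2% of pooled windows. GTTCGA, the core of the B box that marks promoters of RNA polymerase III such as those of tRNA genes, was in the F07A11.15 window alone, on the minus strand and so antisense to that gene, against 27.9% of optimal and 10.5% of pooled windows. With the shares in the same order, TATAAA (21.4% and 30.2%), the trans-splice acceptor letters TTTTCAG (12.5% and 27.9%), CACGTG (5.20% and 5.11%) and GATAAG (8.29% and 8.87%) were in none of the 3. A match describes letters only, and nothing about the factor follows from a missing one. As given above, the 3 windows were also richer in GC than most.

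Set against other genes, din-1 was one of 10 protein-coding genes with 3 optimal summits inside or within 5 kb, of 19985 in all (0.05%), and none had 4. A single such summit or more was found at 1378 genes (6.9%). Long genes take in more sequence: 228 genes were at least as long as din-1 (18.84 kb), and of these 27 had at least 1 optimal summit, 3 had at least 2 and 2 had 3. Most of the 10 genes were neighbours that shared the same peaks, such as rab-7, a small GTPase gene of late endosomes, and W03C9.2 on chromosome II, and ears-2, a glutamyl-tRNA synthetase gene, rps-24, a ribosomal protein gene, ssna-1 and T07A9.14 on chromosome IV. F09A5.3 and the transthyretin-related gene ttr-34 shared 3 peaks within 1.13 kb on chromosome X.

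Because summits were counted inside a gene or within 5 kb, the span that could be found grows with gene length. Genes as short as rab-7 (1.409 kb) or W03C9.2 (2.891 kb) could not have reached the span at din-1. With that limit, the peaks of din-1 were spread more widely than those of the other genes with 3 optimal summits. Its 3 summits spanned 14.933 kb, against 6.945 kb at rab-7 and W03C9.2, 5.164 kb at the chromosome IV genes and 3.868 kb at pqn-41, a gene of 33.6 kb on chromosome III with all 3 inside it. The summed signal of the 3 peaks was 272.9 at din-1, the lowest of the 10, against 551.9 at rab-7 and W03C9.2. With 2 summits each, W03C9.1, W03C9.6, C04A11.1, C04A11.2 and C04A11.5 came next by summed signal, and in each of these the summits lay within 0.207 kb of one another and within 100 bp of tRNA or snoRNA genes. Along the chromosomes, 13 of 507 runs of 3 successive optimal summits (2.56%) were at most as wide as that of din-1, and the median run was 271.2 kb. As din-1 was chosen for 3 optimal peaks inside or within 5 kb, its run could be at most 28.84 kb wide. The share thus in part restates the choice. The next optimal summits lay 82.9 kb away on the downstream side and 114.8 kb away on the upstream side, on a chromosome that held 81 in all.

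Other genes of the DAF-12 pathway and of co-repressor complexes were examined from a list of 27, all found in the annotation, of which 4 are microRNA genes. An optimal summit inside or within 5 kb was found at 3 of the 27, against the 6.9% of protein-coding genes given above. That share does not cover the 4 microRNA genes, none of which had such a summit. At hbl-1, which encodes a Hunchback-like zinc finger protein of the heterochronic pathway, the optimal summit lay 3699 bp from the gene on chromosome X, at a signal of 82.6, with rank 2680 in the replicate 1 list and 8648 in that of replicate 3. At lin-42, a heterochronic gene related to Period, it lay inside the gene on chromosome II, with a signal of 75.8 and replicate ranks of 891 and 495. At hda-1, a class I histone deacetylase gene on chromosome V, it had a signal of 71.9, and the pooled region ranked 983 in replicate 1, with a summit 112 bp away, and 442 in replicate 3. None of these 3 genes had more than 1 optimal summit.

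The receptor gene itself had none. At daf-12, 12 pooled summits lay inside or within 5 kb, of which the highest had a signal of 36.7 at rank 1714, with replicate 3 at rank 1272 and the nearest replicate 1 summit 206 bp away. Genes of sterol metabolism and of the synthesis of its ligand varied in their number of pooled summits and had no optimal one. The cytochrome P450 gene daf-9 had 1 with a signal of 28.2, hsd-1 had 5, of which the highest had 17.6, emb-8 had 5 (highest 25.6), strm-1 had 8 (highest 25.8), and daf-36, an oxygenase gene, and dhs-16, a steroid dehydrogenase gene, had none. Higher signals were found at ncr-1, with 3 pooled summits (highest 40.1 at rank 1395, above that of daf-12), ncr-2 with 3 (highest 30.6) and nhr-8 with 4 (highest 29.5). The highest pooled signals of the list were 63.1 at hda-1, 61.8 at lin-42, 59.7 at rcor-1, a CoREST gene, and 59.0 at rba-1, a gene of a histone-binding protein. All were below the 100.7 of the ZK20.9 peak, which belongs to the gene chosen for its peaks. None of the 27 genes had a pooled region among the 519 highest, but hda-1 (rank 523) and lin-42 (rank 545) lay just past that cut. The share of all genes with such a region was not counted, so that nothing about the list follows.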

How the data were processed

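ChIP-seq peak lists of 2 libraries (replicates 1 and 3) in build ce11 were used. The build is given per the notes deposited beside them, and the lists in build ce10 were not used. The authors deposited a list for each replicate, a pooled list and an optimal list, the last filtered on the irreproducible discovery rate. Signal values, as deposited, are those of the authors' peak caller. In the replicate and pooled lists the column of significance deposited by the authors was taken to be −log10 q-values, which the format of the files calls for. In the optimal list the deposited score may rest on a q-value or on that rate and was not used in any result. The aligner, the peak caller and versions are not given in the sources used here. No read counts were used here, so that depth is unknown and no interval was computed. The labels give the libraries as biological replicates.

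Each summit was taken as start plus offset, counted from 1. Genes came from the Ensembl release 115 annotation of WBcel235 and sequences from the RefSeq genome of the same build; 4 microRNA genes were matched by symbol through the RefSeq table. Distances to 5' ends are to annotated ends, many of which are trans-splice sites. Summits within 100 bp were called matched. The genes named are din-1, genes there that are nearest to a pooled summit or are snoRNA genes, the genes with as many optimal summits and the next 5, and, from the pathway list, those with an optimal peak and the 4 with the highest pooled signal. F07A11.10, F07A11.12, ghi-1, WBGene00002194, daf-12, daf-9, hsd-1, emb-8, strm-1, daf-36, dhs-16, ncr-1, ncr-2 and nhr-8 were named in addition, after their values had been seen. The members, lists and motifs were chosen with earlier results of these data known. With 1 group no test was made. Position and matching functions were tested on simulated regions. Alternatives changed the distances, the thresholds, the list and the matching rule, and left out a replicate. Python 3.11.15, numpy 2.4.6, pandas 2.3.3 and matplotlib 3.10.9 were used.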

Additional observations from a re-analysis of the deposited data

How the results depend on the processing

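Of 27 alternative settings over 7 results, 15 left the value within the margin set for it and 12 moved it. Apart from what each setting leaves out by construction, the cause was not tested. The number of optimal peaks at din-1 was 1 instead of 3 when only summits inside the gene, the stronger part of the optimal list above its median signal or the 519 highest pooled signals were counted, and with a replicate left out, when regions among the 519 highest of the other list were counted in place of optimal peaks, ranged between 1 and 3 (3 in replicate 3, namely the regions at ZK20.9 and ZK20.8 and one at 11636097 with no optimal peak, and 1 in replicate 1). Pooled regions numbered 8 instead of 15 inside the gene, and between 15 and 16 with a replicate left out. Pooled regions matched in both replicates numbered 3 within 50 bp and 10 at an overlap of 1 bp instead of 6, and optimal peaks 0 within 50 bp instead of 2. A snoRNA gene held 1 optimal summit inside it, instead of 2 within 100 bp, and 1 optimal summit instead of 2 lay 500 bp upstream to 100 bp downstream of a 5' end. Genes with at least as many optimal peaks as din-1 numbered 151 when summits inside the gene were counted, of which din-1 has 1, and 1, din-1 itself, when each peak went to the nearest 5' end within 2000 bp, instead of 10. No paired analysis was possible because the labels give 1 group. Depth is unknown, so that a weak region and an undetected one cannot be told apart.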

Other observations

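The F07A11.15 and ZK20.8 windows shared a run of 11 bases, GAGACACAGAC, read on the strand of each small RNA gene and found by comparing the windows after the data had been seen. In ZK20.8 it forms the first bases of the gene, at 11634324 to 11634334 of chromosome II, and in F07A11.15 it lies inside the gene, at 11620133 to 11620143. The run was in 4 of 519 optimal windows of 301 bp (0.771%), these included, and in 31 of 24215 pooled windows (0.128%). The longest run shared by the ZK20.8 and ZK20.9 windows had 10 bases, and that shared by the F07A11.15 and ZK20.9 windows had 8.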
